A study of Mus musculus with 12 samples.

Results

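The cathepsins and legumain are the protein-cutting enzymes of the lysosome. They were taken as the 10 genes Ctsa, Ctsb, Ctsc, Ctsd, Ctsf, Ctsh, Ctsl, Ctss, Ctsz and Lgmn, matched by symbol. All 10 were found among the 29957 named genes of the microglia table and among the 14663 of the hippocampus table, and all 10 passed the filter on low values in both (10663 and 13491 genes tested). The study sequenced RNA from C57BL/6 mice in 4 groups of 3 samples, with no other genotype or treatment named. Microglia, the resident macrophages of the brain, came from the hippocampus at 3 or 24 months of age. Whole hippocampus, which mixes neurons, glia and vessels, was taken at 6 or 18 months. The isolation of the microglia is not described in the labels. Nor is it stated whether each sample was a different animal, so the tests measure only the spread between these samples, which may be technical.

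Cathepsins are made as inactive precursors, tagged with mannose 6-phosphate and carried to the lysosome, where acid pH lets them mature. They fall into catalytic families. Cathepsin D (Ctsd) is an aspartic protease that makes the first cuts in many proteins, and cathepsin A (Ctsa) is a serine carboxypeptidase that also shields beta-galactosidase and neuraminidase 1. The others are cysteine proteases: cathepsins B, F, L and S cut within chains (B also trims ends), cathepsins C, H and Z trim chain ends, and legumain (Lgmn) cuts after asparagine and activates other cathepsins. Cathepsin S stays active at neutral pH and trims the invariant chain of MHC class II in antigen-presenting cells. Microglia carry much of the lysosomal protease content of the brain.

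Promoter sequences from RefSeq (build GRCm38.p6) were available for 8 members. They are shown for Ctsd and the 3 members whose mRNA levels across the microglia libraries were nearest to it (Ctsa, Ctsz and Lgmn), and for Ctss, which varied differently. Ctsl, which lay still farther from Ctsd than Ctss did, is not shown. Each line gives the 250 bases before an annotated start, 5′ to 3′, with the E-box CACGTG (extended to TCACGTGA where present) or the interferon regulatory factor motif (GAAA, any 2 bases, GAAA) in capitals. For Ctsa and Lgmn, which each have more than 1 annotated start, the start whose window holds an E-box is shown. The windows lie at chr7:142387828-142388077, minus strand, for Ctsd, at chr2:164833523-164833772, plus strand, for Ctsa, at chr12:102439093-102439342, minus strand, for Lgmn, at chr2:174439040-174439289, minus strand, for Ctsz, and at chr3:95526536-95526785, plus strand, for Ctss.
Ctsd: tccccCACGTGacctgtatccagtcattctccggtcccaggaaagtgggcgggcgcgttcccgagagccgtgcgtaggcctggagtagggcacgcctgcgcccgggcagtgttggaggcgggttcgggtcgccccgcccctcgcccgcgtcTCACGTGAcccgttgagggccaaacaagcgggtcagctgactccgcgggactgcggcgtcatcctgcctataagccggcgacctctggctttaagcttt
Ctsa: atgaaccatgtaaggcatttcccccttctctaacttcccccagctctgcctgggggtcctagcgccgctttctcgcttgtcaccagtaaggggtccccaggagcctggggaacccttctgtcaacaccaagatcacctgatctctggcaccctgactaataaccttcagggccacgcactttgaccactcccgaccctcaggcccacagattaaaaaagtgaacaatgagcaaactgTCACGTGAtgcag
Lgmn: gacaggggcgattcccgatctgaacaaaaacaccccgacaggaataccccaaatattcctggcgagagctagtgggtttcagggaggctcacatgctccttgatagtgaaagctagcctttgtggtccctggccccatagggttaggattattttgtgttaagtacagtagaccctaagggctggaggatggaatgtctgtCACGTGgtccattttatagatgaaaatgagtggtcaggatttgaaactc
Ctsz: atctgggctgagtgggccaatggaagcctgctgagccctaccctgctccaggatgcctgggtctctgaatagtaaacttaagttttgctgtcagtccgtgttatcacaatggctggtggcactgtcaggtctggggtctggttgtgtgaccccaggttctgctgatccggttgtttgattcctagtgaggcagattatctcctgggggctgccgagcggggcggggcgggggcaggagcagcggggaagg
Ctss: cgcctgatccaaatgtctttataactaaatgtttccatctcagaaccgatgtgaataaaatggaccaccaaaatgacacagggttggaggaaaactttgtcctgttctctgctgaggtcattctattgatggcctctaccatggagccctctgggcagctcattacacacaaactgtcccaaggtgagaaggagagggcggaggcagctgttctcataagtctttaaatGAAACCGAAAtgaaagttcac
The E-box CACGTG is the core of the site bound by the lysosomal regulator TFEB. It was found on either strand in 5 of the 10 member windows, 1 each of Ctsa, Ctsd, Ctsf, Ctsl and Lgmn. The other window of Ctsa and that of Lgmn held none. Of all 32851 promoter windows of the same length, 6.02% held the E-box. Its extended form TCACGTGA overlaps the E-box by construction. This form was found in windows of Ctsa (13 bases before the start) and Ctsd (99 bases before) and in 0.785% of all windows. The window of Ctsd holds a second E-box 245 bases before the start, and that of Ctsl, not shown, holds 1 at 236 bases before. The longer lysosomal CLEAR form, which is TCACGTGA with a G before it and a C after it, was found in 0 member windows and in 0.24% of all. The interferon regulatory factor motif was found 21 bases before the start of Ctss and in 2.98% of all windows. The PU.1 motif GAGGAAGT was found in the window of Ctsc and in 2.44% of all. The window of Ctsz held none of these motifs. A match is a description of letters and was not tested for binding.

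Estimated counts per microglia library ranged from 8068023 to 14217142. The depth of the hippocampus libraries is unknown, since their table gives normalized counts. Microglia markers were high in every microglia library (14 of 14 detected, summing to 49272 to 70368 TPM, a unit that scales each gene for transcript length and library total), while 10 neuronal markers summed to at most 11.9 TPM. In whole hippocampus the neuronal markers were all tested and summed to 8117 to 8759.9 normalized counts. Among the old libraries, 24 month replicates 1 and 2 stood apart: 14 immediate early and stress genes summed to 19584 and 21884 TPM there, to 1005 TPM in 24 month replicate 3 and to 688 to 1212 TPM at 3 months. Neutrophil markers summed to 7266 TPM in 24 month replicate 1 and to 3.58 to 102 TPM in the other 5 libraries. Endothelial and mural markers summed to 11.7 to 22.0 TPM young and to 228, 84.4 and 33.7 TPM old, with no overlap. Monocyte markers summed to 185 TPM in 24 month replicate 1 and to 5.00 to 16.9 TPM in the other 5 libraries. Astrocyte markers, mostly Slc1a3, summed to 48.0 to 110 TPM young and to 221, 223 and 146 TPM old, with no overlap. Oligodendrocyte markers summed to 109 to 135 TPM young and 109 to 157 TPM old. The part of these cells in the members' values was not tested.

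In microglia the 10 genes together made up 5.31% to 5.71% of the TPM at 3 months. The values at 24 months were 4.34% and 4.41% in replicates 1 and 2 and 5.82% in replicate 3, so the age groups overlapped. On the TPM scale, which corrects for transcript length and so allows genes to be compared, the 3 genes Ctsd, Ctss and Lgmn held 79.3% to 80.1% of the members' sum in each library. Young microglia had the order Ctsd (16872 ± 972 TPM), Ctss (12702 ± 890), Lgmn (9433 ± 325), Ctsz (3589.9 ± 392), Ctsa (2518 ± 166), Ctsb (1389.9 ± 106) and Ctsh (887 ± 81.9; SD, n = 3 throughout). Then came Ctsc (619 ± 75.1), Ctsl (533 ± 79.6) and Ctsf (440.4 ± 64.0). The first 7 places were the same in all 3 young libraries, whereas Ctsc and Ctsl traded places in 3 month replicate 2 and did not differ beyond their spread. Ctsd ranked 3rd, Ctss 5th and Lgmn 6th or 7th among all genes of the young libraries. Even Ctsf, the lowest member, ranked between 199 and 301.

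**Figure D1:**
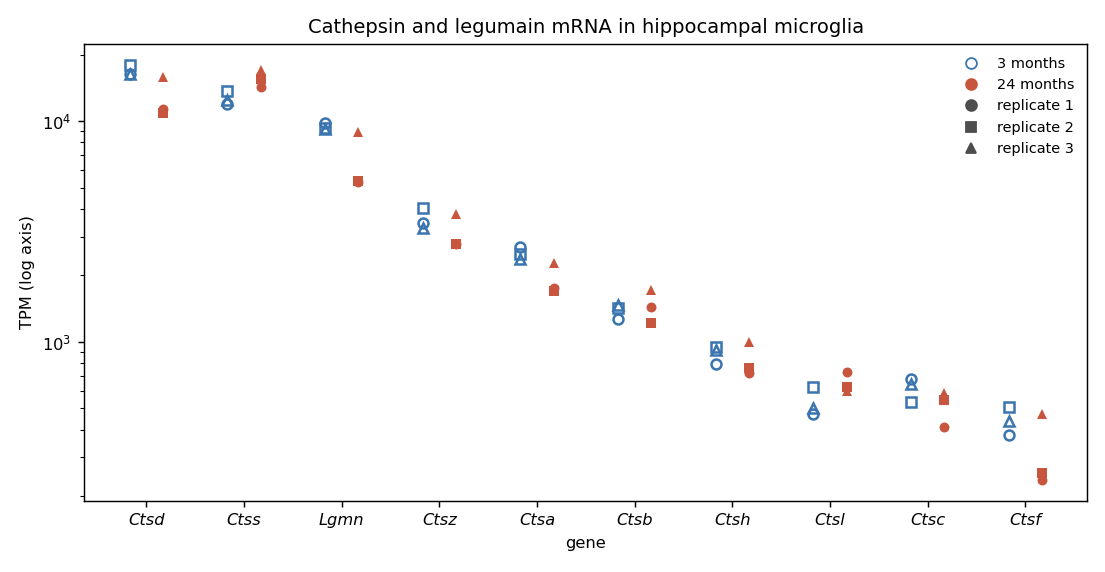
TPM (log axis) of each member in each microglia library, ordered by mean level; open symbols are the 3 month and filled symbols the 24 month libraries, and the symbol shape gives the replicate. Ctss stands above Ctsd in each 24 month library and below it in each 3 month library, and for Lgmn and Ctsf the triangle of 24 month replicate 3 stands well above the other old libraries.

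No member passed the test between 24 and 3 months in microglia (0 of 10 by edgeR's quasi-likelihood test, adjusted p 0.899 to 0.998), where 0% of the 10663 genes tested did. At an unadjusted p under 0.05 there were 0 members, against 5.53% of genes (3.52% higher and 2.02% lower), and DESeq2 likewise called 0 members (adjusted p at least 0.465). That count of 0 at an unadjusted p differed in 4 alternatives: it was 1 with DESeq2 (Ctss), 2 with limma on log2(TPM + 1) (Ctsa and Lgmn) and 3 without a filter on low counts (Ctsd, Ctss and Lgmn). Without 24 month replicate 3 it was 6 (Ctsa, Ctsd, Ctsf, Ctss, Ctsz and Lgmn), where 540 genes higher and 477 lower of 11243 had such a p. Of the log2 changes, 7 were below 0 and 3 above (median -0.20, against 0.01 over all genes tested, of which 49.5% were below 0). The members were measured more closely than most genes, with a median standard error of 0.18 against 0.89. In the rest of the account of microglia, test values are from edgeR, levels are in TPM, and CPM stands for the estimated counts scaled to the TMM library size, without a length correction.

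Ctsd, the aspartic protease, was at 16347, 17993 and 16275 TPM in the young libraries and at 11359.6, 10877 and 15903 TPM in the old. Replicates 1 and 2 of 24 months were well below the young range, and replicate 3 lay just under it. Its log2 change was -0.38 ± 0.20 (SE; 95% interval -0.84 to 0.07). Ctsa, the protective serine carboxypeptidase, was at 2697, 2487 and 2369 TPM and then at 1758, 1691 and 2281 TPM, with a log2 change of -0.31 ± 0.18 (SE; interval -0.72 to 0.10). Both intervals include 0. The average transcript length of Ctsa varied by 12.0% between libraries (1667 to 1867 bases) and that of Ctsc by 13.9%, against at most 6.12% for any other member. Part of such variation was shared, since the lengths of Ctsb, Ctsf, Ctsl, Ctss and Ctsz rose and fell together between libraries. Those genes were longest in 3 month replicate 1, where Ctsa and Ctsc were shortest. The estimated mix of transcripts of Ctsa and Ctsc thus differed between libraries.

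Lgmn, the asparagine-specific protease, was at 9807, 9272 and 9219 TPM at 3 months and at 5319, 5339.9 and 8967 TPM at 24 months. The first 2 old values were far below the young ones and nearly equal, and the third lay just under the young range. Its mean was 9433 ± 325 TPM young and 6542 ± 2100 TPM old (SD, n = 3 each), with a log2 change of -0.52 ± 0.23 (SE; interval -1.05 to 0.01; edgeR adjusted p = 0.899). Lgmn is the member whose call turned on 1 library. Without 24 month replicate 3 it fell by 0.81 on the log2 scale and passed (edgeR adjusted p = 0.0432), where 0.0445% of the 11243 genes tested then fell. On the TPM scale Ctsa, Ctsd and Lgmn had every old library below every young one (3 of 10, against 6.73% of genes). On the CPM scale 24 month replicate 3 lay within the young range for each of them, so that 0 of 10 were separated in this direction (6.18% of genes).

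Ctss, the neutral-stable endopeptidase, took the other direction. It was at 11956, 13687 and 12462 TPM at 3 months and at 14214, 15456 and 17000.1 TPM at 24 months. All old values exceeded all young values (1 of 10 members, against 6.94% of genes on the TPM scale), and the highest value was in 24 month replicate 3, the old library with few immediate early transcripts. The mean was 22.5% higher (12702 ± 890 and 15557 ± 1396 TPM; SD, n = 3 each). Its log2 change was 0.30 ± 0.16 (SE; interval -0.07 to 0.67; edgeR adjusted p = 0.967). Ctss was the only member whose age groups did not overlap on the CPM scale (1 of 10, against 7.26% of genes higher in this way, and 8.82% of those with a mean of at least 500 CPM).

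Among the other cysteine endopeptidases, Ctsb, an abundant protease that also trims carboxyl ends, was at 1270, 1426 and 1474 TPM and then at 1442, 1221 and 1709.6 TPM. The groups overlapped, and the log2 change was 0.10 ± 0.18 (SE). Ctsl, which processes many proenzymes and antigens, was at 472, 623 and 504 TPM and then at 728, 625 and 599 TPM. Its highest value was in 24 month replicate 1, and its log2 change was 0.31 ± 0.20 (SE; interval -0.15 to 0.77). Ctsf, a less abundant relative, was at 378, 506 and 437 TPM and then at 237, 254 and 472 TPM. Here 24 month replicates 1 and 2 lay below the young range and replicate 3 inside it, and the log2 change was -0.45 ± 0.28 (SE; interval -1.10 to 0.20).

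The cysteine exopeptidases showed no separation between the ages. Ctsc, the dipeptidyl peptidase that activates granule serine proteases, was at 679, 535 and 643 TPM and then at 412, 545 and 588 TPM, lowest in the library with neutrophil transcripts. Ctsh, an aminopeptidase, was at 795, 950.3 and 917 TPM and then at 725, 762 and 995 TPM. Ctsz, a carboxypeptidase, was at 3464, 4029 and 3276 TPM and then at 2774, 2781 and 3787 TPM. The log2 changes were -0.20 ± 0.18 for Ctsc, -0.12 ± 0.18 for Ctsh and -0.20 ± 0.19 for Ctsz (SE). In all 3 genes the age groups overlapped.

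The spread among the old libraries followed the same split in most members. In 7 of 10 members (Ctsa, Ctsc, Ctsd, Ctsf, Ctsh, Ctsz and Lgmn) 24 month replicates 1 and 2 both lay below every young library in CPM. This was so for 14.4% of all genes tested, but for 42% of the 238 genes with a mean of at least 500 CPM, so the count is less unusual among abundant genes. The pattern was looked for after the values had been seen. The mean of these 2 libraries lay below the young mean by a log2 difference of -0.80 for Ctsf, -0.78 for Lgmn, -0.55 for Ctsd, -0.44 for Ctsa, -0.34 for Ctsz, -0.28 for Ctsc and -0.25 for Ctsh. In 24 month replicate 3 the log2 differences of these 7 genes were between -0.11 and 0.10, and 8 of 10 members lay inside the young CPM range there, against 57.8% of all genes tested. Ctsb and Ctss were the other 2, both above that range. The share of genes inside the range was not computed for abundant genes alone, so the count is not read as a trait of the members. For Ctss the difference was 0.26 in replicates 1 and 2 and 0.38 in replicate 3. Border macrophage markers summed to 255 to 322 TPM young and 205 to 212 TPM old, with no overlap. Almost all came from Stab1 (251 to 321 TPM young and 174 to 210 TPM old), except in 24 month replicate 2. There Pf4 was at 15.8, Folr2 at 7.76, F13a1 at 5.02 and Mrc1 at 3.08 TPM, each higher than in any young library. These 4 genes were at 0 in 24 month replicates 1 and 3. The part that these cells and the immediate early and stress transcripts of replicates 1 and 2 had in the members' values was not tested.

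**Figure D2:**
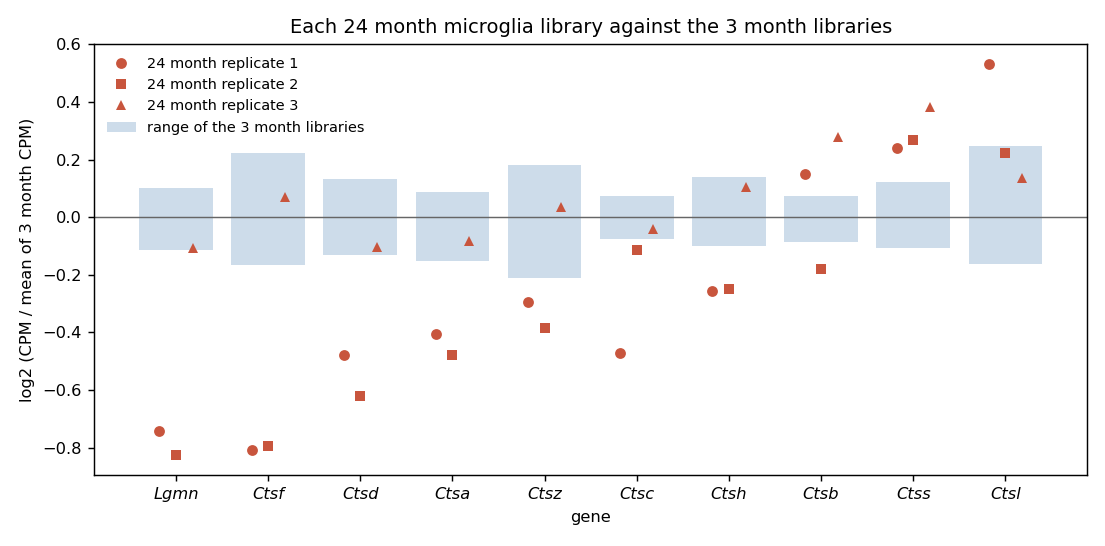
Log2 ratio of each 24 month microglia library to the mean of the 3 month libraries (CPM), for each member; the shaded band is the range of the 3 month libraries. For Lgmn, replicates 1 and 2 lie far below the band and replicate 3 inside it, while for Ctss all 3 old libraries lie above the band.

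Markers of microglia moved with this split. Their sum was 67691 to 70368 TPM at 3 months, 49272 and 50669 TPM in 24 month replicates 1 and 2 and 68146 TPM in replicate 3. Set against this sum, Ctsd stood at 24.1, 26.0 and 23.1 TPM per 100 TPM of markers in the young libraries and at 23.1, 21.5 and 23.3 in the old, so that the groups overlapped. Ctsa gave 3.37 to 3.98 young and 3.34 to 3.57 old, again with overlap. Lgmn gave 14.5, 13.4 and 13.1 and then 10.8, 10.5 and 13.2, which left replicates 1 and 2 below the young range. Ctss stood at 17.7, 19.8 and 17.7 per 100 TPM of markers and then at 28.8, 30.5 and 24.9, with no overlap. Ctsb (1.88 to 2.09 and 2.41 to 2.93) and Ctsh (1.17 to 1.38 and 1.46 to 1.505) also had the old libraries higher on this scale, which makes 3 of 10 members, against 11.4% of genes. The marker sum itself was lower in 24 month replicates 1 and 2, which raises any gene that did not fall with it, and the TPM and CPM groups of Ctsb and Ctsh overlapped.

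The shares of the leading members in the members' sum followed from their levels. Ctss made up 24.98%, 26.6% and 26.2% of the members' sum in TPM at 3 months and 36.5%, 39.1% and 32.5% at 24 months. Ctsd made up 34.2% to 34.9% and then 27.5% to 30.4%, and Lgmn 18.0% to 20.5% and then 13.5% to 17.1%. The ratio of Ctss to Ctsd was 0.731, 0.761 and 0.766 in the young libraries and 1.25, 1.42 and 1.07 in the old (0.753 ± 0.0185 and 1.25 ± 0.176; SD, n = 3 each). Ctsd was thus the leading member in every young library and Ctss in every old one. The ratio of Ctss to Lgmn was 1.22, 1.48 and 1.35 and then 2.67, 2.89 and 1.90. In both ratios the old libraries lay above the young ones, replicate 3 being the nearest to them. Since the TPM of Ctss was already separated upward and that of Ctsd and Lgmn downward, both ratios had to separate. They were chosen after the values had been seen and carry no test.

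**Figure D3:**
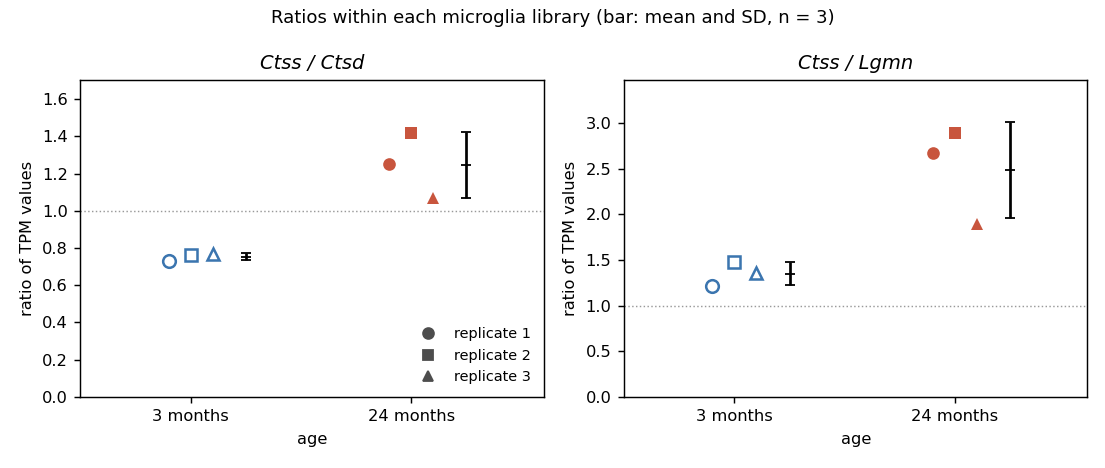
Ratio of Ctss to Ctsd (left) and of Ctss to Lgmn (right) in TPM within each microglia library, by age; symbols give the replicate and the bar the mean and SD of 3 libraries. The Ctss to Ctsd ratio is 0.731 to 0.766 at 3 months and 1.07 to 1.42 at 24 months, on either side of the dotted line at 1.

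The genes most like 3 of the members were found from the root mean square difference of centred log2 CPM over the 6 libraries, among 3436 genes with a mean of at least 50 CPM. Nearest to Ctss were Btk, a kinase of immune receptors (difference 0.0630), Gabarapl2, an autophagosome protein (0.0644), and Sdf4 (0.0901). Nearest to Ctsd were P4hb, a protein disulfide isomerase (0.0303), Trem2, the lipid-sensing receptor of microglia (0.0469), and Clic1 (0.0563). Nearest to Lgmn were Tmem119, a surface marker of resident microglia (0.0357), Selplg, a selectin ligand (0.0561), and Uqcrc1, a subunit of respiratory complex III (0.0672). Between members, Ctsd and Ctsa were the closest to each other of the pairs that include Ctsd (0.0646), while Ctss lay 0.368 from Ctsd and 0.473 from Lgmn. The points share their libraries and scaling, and the measure carries no test.

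The genes that hold cathepsins in check, carry them or work beside them gave no call in microglia. Of 14 listed inhibitors 6 were tested, with 3 higher, 3 lower and 0 called (median log2 change 0.13). Cst3, the secreted inhibitor cystatin C, was at 93171 to 105456 TPM young and 83174 to 88683 TPM old (log2 change -0.20 ± 0.17, SE). Its ratio to the sum of the 8 cysteine protease members was 3.22 to 3.40 young and 2.60 to 3.30 old. Cst7, the inhibitor of cathepsin C known as cystatin F, was at 11.9, 48.4 and 25.9 TPM and then at 114, 76.4 and 117 TPM (log2 change 1.85 ± 0.63, SE; edgeR adjusted p = 0.791). All old libraries lay above the young ones, as for 6.94% of genes. Cstb, a cytosolic inhibitor, had a log2 change of 0.47 ± 0.31 (SE), and Serpine2, a secreted serine protease inhibitor, of -0.26 ± 0.16 (SE).

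Of 18 tested genes for sorting to the lysosome 7 were higher, 11 lower and 0 called (median -0.15). M6pr, a mannose 6-phosphate receptor, was at 204 to 244 TPM young and 138 to 211 TPM old. Nagpa, which uncovers the mannose 6-phosphate tag, had a log2 change of -0.78 ± 0.32 (SE), Vps29, a retromer subunit, of -0.12 ± 0.31 and Gnptg, a subunit of the tagging enzyme, of -0.17 ± 0.36. Of 19 tested partners and substrates 4 were higher, 15 lower and 0 called (median -0.25). Log2 changes among the abundant partners were -0.38 ± 0.21 for Cd68, a lysosomal membrane protein of macrophages, -0.54 ± 0.18 for Unc93b1, which carries Toll-like receptors to the endosome, and -0.30 ± 0.34 for Psap, the precursor of the saposins (SE).

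Of 11 tested transcription factors 4 were higher, 7 lower and 0 called (median -0.08). Irf8, an interferon regulatory factor of microglia, was at 506 to 668 TPM young and 356 to 458 TPM old (log2 change -0.57 ± 0.20, SE; edgeR adjusted p = 0.810). The old libraries all lay below the young ones, as for 6.73% of genes. Spi1, which encodes PU.1, had a log2 change of 0.00 ± 0.25 and Usf1, an E-box-binding factor, of -0.75 ± 0.39 (SE). Cathepsin genes outside the 10 were scarce: 7 of 13 were at 0 in every library and 2 were tested. Ctso was at 102 to 145 TPM young and 90.1 to 158 TPM old. Ctsw, a cathepsin of cytotoxic lymphocytes, had 0 estimated counts in each young library and 147, 24 and 45 in the old. With the 3 young libraries together set to a floor of 3 counts, the pooled CPM of Ctsw was at least 86.8-fold higher at 24 months. That bound takes no account of the spread between libraries, and Ctsw was not called (edgeR adjusted p = 0.546). Leaving out 24 month replicate 1 lowered this bound to 40.9-fold. Lymphocyte markers summed to 57.7 to 82.8 TPM young and to 6.41, 38.6 and 84.5 TPM old. Almost all of this came from Cd79b, a B cell gene, except in 24 month replicate 1, where Cd79b was at 0. The T and cytotoxic cell markers Cd3e, Cd3g, Trac, Nkg7, Gzma and Gzmb were at 0 in every library. Of the other T cell markers, Cd3d was at 0.767 to 0.903 TPM young and 0.892 to 1.26 TPM old. Cd4 was at most 0.750 TPM and Cd8a at most 0.884 TPM in any library. Ctsk was seen only in 24 month replicate 3 (4.58 TPM), and Ctse only in the old libraries (0.428 to 3.04 TPM).

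In whole hippocampus the levels are the authors' normalized counts, which are not corrected for transcript length between genes, so genes are not compared with each other here. In bulk tissue, fewer cells of a type and less RNA per cell cannot be told apart. No member passed between 18 and 6 months (0 of 10 by limma on log2 of the normalized count + 1, adjusted p 0.877 to 0.999), where 0% of the 13491 genes tested did. At an unadjusted p under 0.05 there was 1 member, higher, against 5.37% of genes (2.13% higher and 3.24% lower). With limma without a mean trend it was 0, as the unadjusted p of Ctss was then 0.0624. The median log2 change was -0.04, the same as over all genes tested (-0.04).

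That member was Ctss. It was at 111, 95.6 and 119.8 normalized counts at 6 months and at 167, 159.6 and 165 at 18 months. The old samples were close together and all above the young ones (1 of 10 members, against 5.03% of genes higher in this way), and 0 members were separated in the other direction (5.93% of genes). The mean was 50.6% higher (109 ± 12.3 and 164 ± 3.69; SD, n = 3 each), with a log2 change of 0.59 ± 0.21 (SE; interval 0.15 to 1.03; limma adjusted p = 0.877). Leaving out each sample in turn kept the log2 change between 0.50 and 0.66. Ctss was the only member separated in both tissues with the older samples higher, as were 0.389% of the 9780 genes tested in both. The ages and tissues of these comparisons differ, and the difference between them was not tested.

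The sum of the microglia markers was also higher in the hippocampus of 18 months, but not every marker was. Of 14 markers 10 were higher, 4 lower and 0 called (median log2 change 0.30), where 52.8% of all genes tested were lower. In 3 markers all older samples lay above the younger ones (5.03% of genes). Siglech had all of them below (5.93% of genes), at 52.0, 45.6 and 30.3 normalized counts and then at 8.77, 28.2 and 22.2. The 14 markers summed to 679 to 831 normalized counts at 6 months and 889 to 972 at 18 months, with no overlap. Ctss as a ratio to that sum was 0.134, 0.127 and 0.176 and then 0.185, 0.180 and 0.170, so the groups overlapped on this scale. Border macrophage markers summed to 18.5 to 49.7 and 19.3 to 49.5 normalized counts. Choroid plexus markers varied from 363 to 12945 between samples of both ages. The part of these cells in the Ctss values was not tested.

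The other members showed no separation. Ctsd was at 661, 869 and 572 normalized counts at 6 months and at 659.96, 789 and 635 at 18 months (log2 change 0.00 ± 0.17, SE; interval -0.35 to 0.36). Ctsb was at 726, 808 and 718 and then at 776, 663 and 753 (-0.04 ± 0.13, SE; interval -0.33 to 0.25). Both intervals exclude a 1-unit change in either direction. Lgmn was at 149.8, 153 and 160.2 and then at 105, 168 and 181 (-0.06 ± 0.23, SE), with the low value in 18 month replicate 1. Ctsl varied little, at 109 to 114 and 105 to 116 normalized counts (-0.03 ± 0.22, SE).

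Ctsa (122 to 185 and 141 to 181 normalized counts), Ctsf (72.6 to 98.8 and 66.4 to 98.7) and Ctsz (69.4 to 93.5 and 62.7 to 82.0) had log2 changes of 0.04 ± 0.22, -0.08 ± 0.27 and -0.05 ± 0.27 (SE). The least detected members were Ctsc (33.9, 49.7 and 25.6, then 23.7, 17.01 and 37.7) and Ctsh (26.7, 36.5 and 16.5, then 18.2, 19.99 and 18.1). Their log2 changes of -0.48 ± 0.47 and -0.41 ± 0.52 (SE) were below their errors or about equal to them, and their intervals reached from -1.5002 to 0.53 and from -1.54 to 0.71. Among the genes of the pathway in this tissue, 0 of 8 inhibitors, 0 of 19 sorting genes, 0 of 19 partners and 0 of 11 transcription factors were called by limma. Cst3 was at 2551 to 3037 and 2885 to 3370.1 normalized counts (log2 change 0.14 ± 0.12, SE). App, the amyloid precursor, was at 557, 641 and 646 and then at 784, 890.5 and 704. Unc93b1 was at 9.58 to 16.1 and 17.01 to 39.7 normalized counts. Both genes had all older samples above the younger ones, as did 5.03% of all genes tested.

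**Figure D4:**
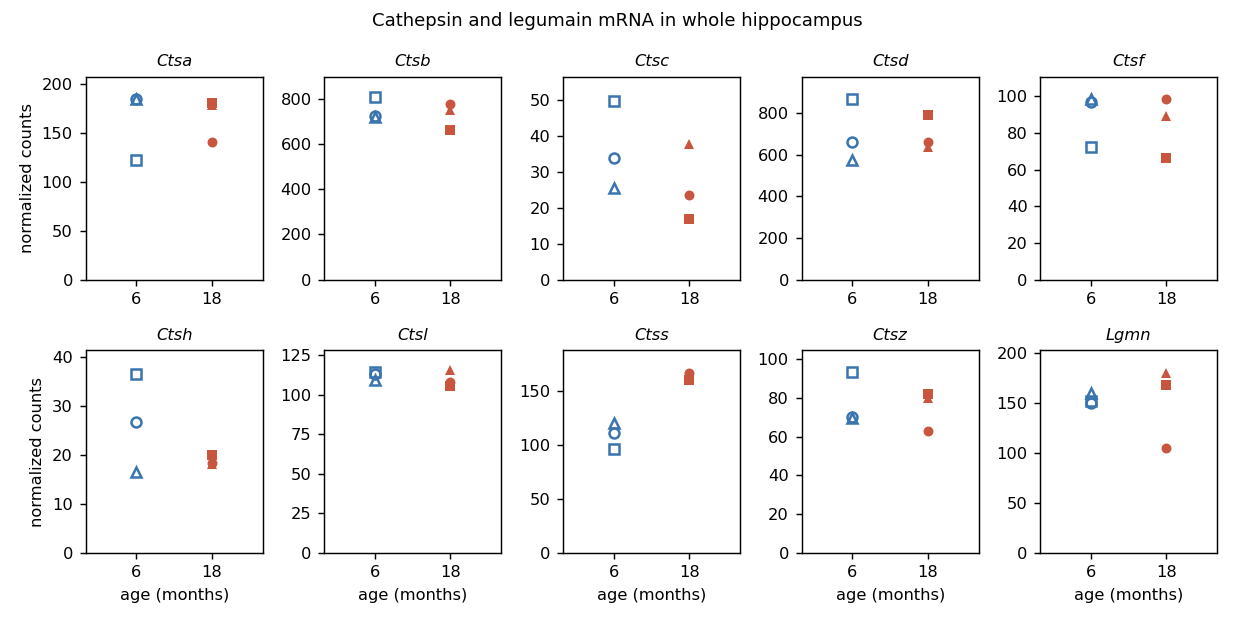
Normalized counts of each member in whole hippocampus at 6 (open, left) and 18 months (filled, right); circles, squares and triangles are replicates 1, 2 and 3, and each panel has its own axis from 0. In the Ctss panel the 18 month samples (159.6 to 167) lie above the 6 month ones (95.6 to 119.8), while the groups overlap in the other panels.

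The authors' deposited tables hold their own tests of the same samples. In the authors' deposited table for microglia, which calls 2.01% of its genes at an adjusted p under 0.05, the adjusted p was 0.472 for Ctss (log2 change 0.29 ± 0.15, SE), 0.509 for Lgmn (-0.53 ± 0.29) and 0.529 for Ctsd (-0.41 ± 0.23). In the authors' deposited table for hippocampus, turned here to 18 minus 6 months and calling 0.305% of its genes, the adjusted p of Ctss was 0.317 (log2 change 0.57 ± 0.20, SE). The next smallest of the authors' adjusted p-values among the members there was 0.946, for Ctsc.

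**Figure D5:**
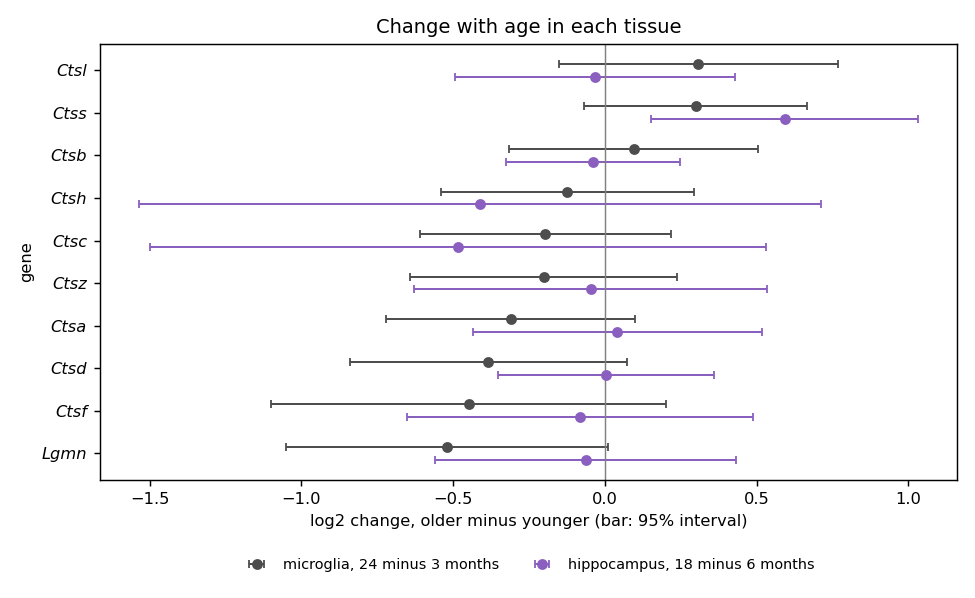
Log2 change of each member with age and its 95% interval, in microglia (24 minus 3 months, edgeR, grey) and in whole hippocampus (18 minus 6 months, limma on log2 of the normalized count + 1, purple). The hippocampus interval of Ctss (0.15 to 1.03) is the one of the 20 that does not include 0, before adjustment for the number of genes tested.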

How the data were processed

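The members and all gene lists were chosen with earlier results of these data known. RNA was reverse transcribed from oligo-dT with template switching, amplified by PCR and tagmented, per the labels' protocols, without molecular identifiers or a strand-keeping kit named. The tools kallisto, DESeq2 and DESeq and the builds GRCm39 and mm10 appear in the submitters' processing notes, without versions or roles. For microglia the authors deposited gene-level TPM, average transcript lengths and estimated counts, per the file headers. For both tissues they deposited normalized counts (a signal scaled between samples) with their mean, a log2 fold change and its error, a Wald score and p-values, per the file headers.

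Here, estimated counts of the 6 microglia samples were rounded and tested with edgeR 4.0.16 (R 4.3.3; quasi-likelihood, TMM, filterByExpr). The normalized counts of the 6 hippocampus samples were tested with limma 3.58.1 (mean trend, log2 of the value + 1, at least 1 in at least 3 samples), which understates changes of low genes. DESeq2 1.42.0 was an alternative. Tests were two-sided, with Benjamini-Hochberg adjustment over all genes and a threshold of 0.05. They were also run on simulated data with changes much larger than those of the members, so that run does not bear on changes of the members' size. Intervals cover 95%. The entry without a gene name (at most 0.0771% of estimated counts and 0.0335% of the hippocampus signal) was left out, and 0 sample columns matched no sample. Low hippocampus values were whole multiples of 1 step in at most 18.4% of cases (tolerance 0.1), so reads were not recovered. TPM of the named genes sum to 891214 to 902418 per library.

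All 10 members are named. Of each pathway list up to 4 genes with the highest microglia level are named whatever their change, plus genes that pass. For each of Ctss, Ctsd and Lgmn the 3 most similar genes are named. App and the ratios were chosen after their values were seen. Some genes that this rule selects are not reported here. In GENCODE M21, Ctsd shares 6757 bases with Gm49369 on the same strand, and Ctsl (Gm49230) and Ctss (Hmgb1-ps5) each contain a processed pseudogene. Ctsa (Neurl2, Pltp), Ctsb (Fdft1), Ctsc (Gm26522), Ctsl (Gm47123) and Ctsz (Nelfcd) overlap genes on the opposite strand. Reads of such pairs could be split uncertainly.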

Additional observations from a re-analysis of the deposited data

How the results depend on the processing

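With 0 genes called in either tissue by the chosen tests (edgeR 375 higher and 215 lower at an unadjusted p under 0.05 in microglia, limma 288 and 437 in hippocampus), some alternatives gave calls, none of them a member except Lgmn as below. In microglia DESeq2 called 192 genes higher and 57 lower, limma on log2(TPM + 1) called 2 higher, and leaving out 1 library gave 0 to 50 higher and 0 to 5 lower, the most without 24 month replicate 3. In hippocampus limma without a mean trend called 1 lower, and leaving out 1 sample gave 0 to 1 higher. Of the members' 250 alternative values, 235 kept their direction and side of the threshold, 14 changed sign and 1 crossed the threshold (Lgmn without 24 month replicate 3, edgeR adjusted p = 0.0432; over all settings its log2 change ran from -0.81 to -0.37 and its adjusted p from 0.0432 to 0.9999).

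Sign changes were mostly of values near 0. With 1 sample left out, the log2 change of Ctsb in microglia ran from -0.027 (without 24 month replicate 3) to 0.21. In hippocampus it ran from -0.16 to 0.16 for Ctsa, from -0.085 to 0.028 for Ctsb, from -0.13 to 0.17 for Ctsd, from -0.22 to 0.083 for Ctsf, from -0.12 to 0.092 for Ctsz and from -0.21 to 0.18 for Lgmn, and quantile normalization put Ctsd at -0.047. Ctss stayed above 0 in all settings run, at 0.23 to 0.35 in microglia and 0.50 to 0.66 in hippocampus. Replicate numbers recur in both ages, but the deviations of same-numbered samples correlated at only -0.003 to 0.092 and not every sample correlated best with its own number, so they were not taken as pairs. With the replicate number as a block, 0 genes were called in either direction in both tissues. Groups of 3 samples limit every comparison, and the cause of each gained call was not tested.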
